A study of Mus musculus with 8 samples.

Results

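Crypt-enriched and villus-enriched epithelial cells of mice that lack Sox4 in the gut epithelium were compared, using 4 of the 8 RNA sequencing libraries of the series: the 2 libraries of the CD44-positive gate (CD44plus) against the 2 libraries of the CD44-negative gate (CD44minus). Each of 2 animals gave 1 library per gate, matched by the animal number in the table names, and the animals are called animal 1 and animal 2 here. The mice were male littermates, 6 weeks old, with floxed Sox4 alleles (Sox4fl/fl:vilCre+/-, Sox4cKO) and the Cre recombinase under the villin promoter, which recombines the alleles from midgestation on. Villin-Cre acts in epithelial cells of the gut, so blood and stromal cells keep Sox4, and every group of the series carries the floxed alleles. The other 4 libraries come from 2 control littermates without Cre (Sox4fl/fl), sorted into the same gates. Cells were sorted by flow cytometry for the epithelial surface protein CD326 (EpCAM) and then by CD44, with 50000 cells per library, and strain background and gut segment are not given in the sources used here.

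The lining of the intestine is renewed from crypts, pockets that hold stem cells, rapidly dividing progenitors and, in the small intestine, antimicrobial Paneth cells. Their daughters move up onto villi, stop dividing and become absorptive enterocytes, mucus-secreting goblet cells or hormone-secreting enteroendocrine cells, and are shed at the villus tip. CD44, a hyaluronan receptor whose gene is a target of Wnt signalling, is found on crypt cells and lost on villus cells, and the Sox4 protein, of the SoxC group of transcription factors, is made in crypts.

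The libraries differ widely in quality. Reads counted to genes were 1175251 and 6963345 in CD44minus and 7679575 and 13238050 in CD44plus, for animal 1 and then animal 2, an order that all pairs of values below follow. Between 64.6 and 96.6% of uniquely placed reads fell on no gene, with the highest share in CD44minus of animal 1. Levels are CPM (read counts scaled to a common library size) with that size adjusted by trimmed mean of M values (TMM) factors from 0.527 (CD44minus, animal 2) to 1.72 (CD44minus, animal 1). Most genes of smell and pheromone receptors are not known to be expressed in gut epithelium. The whole group summed to 2438 and 357 CPM in CD44minus and to 404 and 87.8 CPM in CD44plus. This places CD44minus of animal 1 apart as the library with most background. CD44minus of animal 2 stood apart in another way. It lay at 84.2 on the first principal component (68.1% of the variance), among the CD44plus libraries (53.0 and 162). CD44minus of animal 1 lay at -184.6, on the side of the control CD44minus libraries (-177.8 and -103.7). On the second component (17.3%) it was CD44minus of animal 2 that lay apart, at -153.8. There the CD44plus libraries lay at 33.7 and 40.6 and CD44minus of animal 1 at 21.4. The log CPM of the CD44minus libraries correlated across genes at 0.763, and those of the CD44plus libraries at 0.961. Counts, and for some lists medians, are therefore also given without each CD44minus library. A fall in RNA per cell cannot be told apart from fewer cells of a type in these bulk samples.

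Sox4 itself was at 1.98 and 0.272 CPM in CD44minus and 17.8 and 25.7 CPM in CD44plus. In control it was at 6.74 and 8.26 CPM in CD44minus and 128 and 120.2 CPM in CD44plus. Both Sox4cKO libraries of each gate thus lay below both control libraries of that gate, in the direction of the labels. In CD44minus this order is uncertain, since receptor background was also high in the control libraries of that gate (2203 and 1271 CPM). Within Sox4cKO, Sox4 was higher in CD44plus (log2 fold change 4.48, SE 0.80, edgeR adjusted p = 0.0139), but the CD44minus level rests on 4 reads and 1 read. The receptor genes would predict 7.41 and 1.09 CPM of background on Sox4 in CD44minus, so it was not above background there. In CD44minus of animal 1 the same holds or nearly holds for other genes named below. Predicted background there was 17.8 CPM for Cdk6 (level 5.45 CPM), 8.26 CPM for Pola1 (7.43 CPM), 4.33 CPM for Dkc1 (4.46 CPM) and 1.93 CPM for Alox5ap (1.98 CPM). For Cdk6 the prediction was well above the level, so it can be too high. Folds of genes this low in CD44minus are uncertain.

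Cd44, the gene of the sorting marker, was at 27.2 and 5.72 CPM in CD44minus and 203 and 327 CPM in CD44plus, 16.3-fold higher in CD44plus (log2 fold change 4.03, SE 0.88, edgeR adjusted p = 0.023). The lowest Cd44 and Sox4 levels were in CD44minus of animal 2, the library that lay among the CD44plus libraries on the first component. Epcam, the gene of CD326, was at 473 and 2793 CPM in CD44minus and 1402 and 1187 CPM in CD44plus, and Vil1, which encodes the microvillus protein villin, at 1029 and 5378 CPM in CD44minus and 732 and 620.0 CPM in CD44plus. Neither passed the test between gates (log2 fold changes -0.34, SE 1.16, and -2.24, SE 1.25). Both genes were more than 5 times lower in CD44minus of animal 1 than of animal 2, and Epcam differed between gates in opposite directions in the 2 animals (within-animal log2 ratios 1.56 and -1.23), while Vil1 was lower in CD44plus of both (-0.49 and -3.12).

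Of 20427 genes tested with edgeR's quasi-likelihood test over all 8 libraries, 529 (2.59%) passed an adjusted p of 0.05 between the gates of Sox4cKO. Of these, 339 (1.66%) were higher and 190 (0.93%) lower in CD44plus. With the animal as a replicate block the same test called 1712 (8.38%), 807 higher (3.95%) and 905 lower (4.43%), and all 529 were among them. The sign of the within-animal ratio was the same in both animals for all 529, against 57.6% of all genes tested. The 529 were called in these same libraries, at absolute log2 fold changes of at least 2.11. Their agreement in sign is thus largely built in and is no test of replication. Fitted alone, the 4 Sox4cKO libraries gave 0 calls by edgeR without the block (2154 genes at an unadjusted p under 0.05) and 248 with it.

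The number of calls rests on single libraries. Without CD44plus of animal 2, the deepest library, 11 genes were called, all higher: Mcpt1, Mcpt2, Cma2, Cpa3, Igj, Ifitm1, Ifitm3, Arhgdib, Cnn3, Hist1h2an and Hist1h2ae, of which Cnn3 and Hist1h2ae are named only for this count. Without CD44minus of animal 1 the count was 3379, with 8.45% of the genes tested higher and 8.25% lower. Without CD44minus of animal 2 it was 8440, with 25% higher and 16% lower, so the counts of a list without that library are read against those shares. Leaving out a control library, which is not part of the contrast but enters the filter, the scaling and the estimate of spread, gave 435 and 298 for CD44minus and 226 and 243 for CD44plus. For each group of genes below, counts without a library are therefore printed beside the count over all libraries. The plot of within-animal ratios shows both the shared and the discordant genes.

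**Figure D1:**
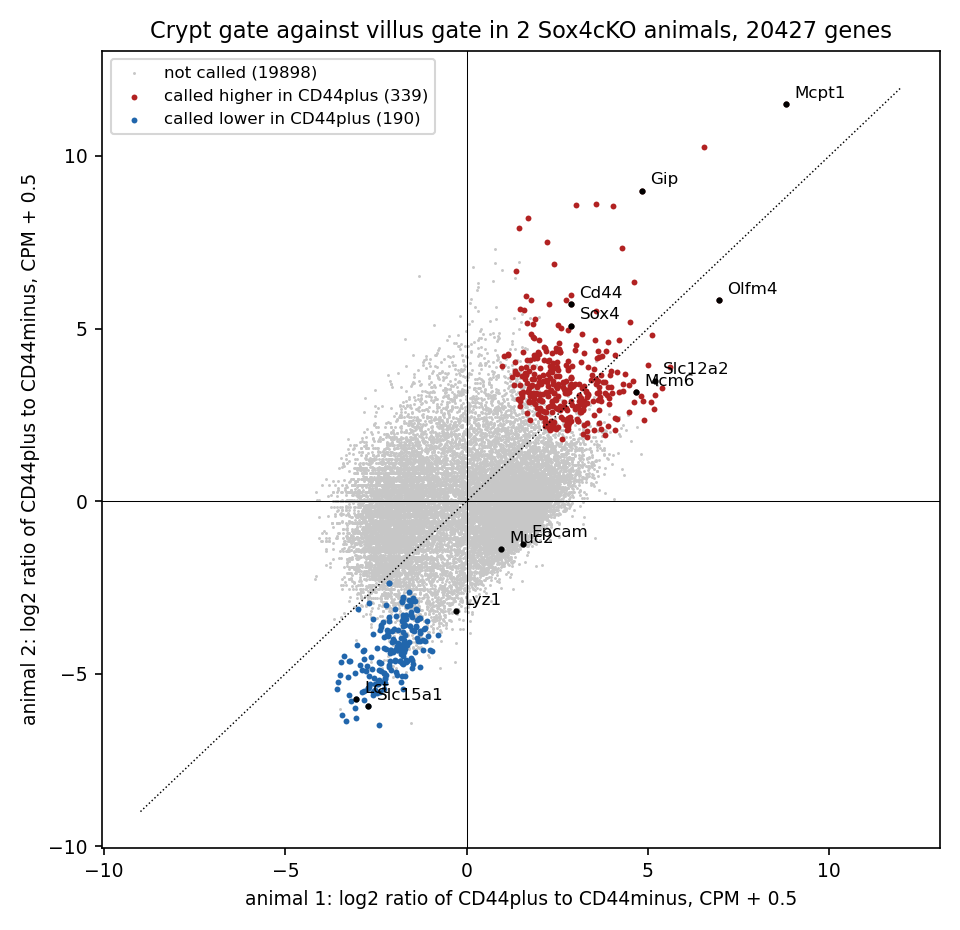
Each point is a gene, placed by its log2 ratio of CD44plus to CD44minus (CPM + 0.5) in animal 1 on the x axis and in animal 2 on the y axis. Genes called higher (339, red) lie in the upper right and genes called lower (190, blue) in the lower left, while Epcam, Lyz1 and Muc2 show how far the animals differ for abundant genes of the epithelium.

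Genes that copy DNA were higher in the crypt gate. Of 36 DNA replication genes tested, 21 rose in CD44plus and 0 fell, and the ratio was positive in both animals for 36. The median log2 fold change of the list was 2.74, with within-animal medians of 2.70 and 2.78, beside -0.48 over all genes tested, the value against which the medians of the other lists can be read. The replicative helicase genes Mcm2 to Mcm7 were all among the 21. Mcm6 was at 10.4 and 32.7 CPM in CD44minus and 278 and 296 CPM in CD44plus (log2 fold change 3.72, SE 0.83, edgeR adjusted p = 0.0239). Mcm5 was at 14.4 and 15.3 CPM in CD44minus and 164 and 197 CPM in CD44plus (12.2-fold, edgeR adjusted p = 0.0153), and Mcm3 at 28.2 and 19.6 CPM in CD44minus and 216 and 302 CPM in CD44plus (10.9-fold). Each of these 3 genes was several times higher in both CD44plus libraries than in either CD44minus library. By any amount, 21.1% of all genes tested were higher in both CD44plus libraries and 16.2% were lower in both. Later statements of this kind can be read against these shares. Pola1, the catalytic subunit of the polymerase that lays down primers, was at 7.43 and 11.4 CPM in CD44minus and 96.6 and 132 CPM in CD44plus (log2 fold change 3.58, SE 0.66, edgeR adjusted p = 0.0141). The lagging strand ligase gene Lig1 was at 23.8 and 42.5 CPM in CD44minus and 227 and 297 CPM in CD44plus (7.87-fold, edgeR adjusted p = 0.0417). Dnmt1, which restores DNA methylation on new strands, was at 38.1 and 78.5 CPM in CD44minus and 442 and 643 CPM in CD44plus and passed only with the replicate block (edgeR adjusted p = 0.0616 without it and 0.0356 with it). The count was 29 without CD44minus of animal 1 and 33 without CD44minus of animal 2, 17 and 0 without CD44plus of animal 1 and of animal 2, and 6 to 18 without a control library.

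Genes of chromosome segregation moved with them. Of 30 mitosis genes, 15 rose, 0 fell, and all 30 had a positive ratio in both animals (median log2 fold change 2.47). With the replicate block 27 were called. Top2a, the topoisomerase that untangles chromosomes, was at 46.1 and 71.1 CPM in CD44minus and 626 and 779 CPM in CD44plus (12-fold, edgeR adjusted p = 0.0487). The cyclin gene Ccna2 was at 10.9 and 17.2 CPM in CD44minus and 159 and 154 CPM in CD44plus (11.1-fold, edgeR adjusted p = 0.016), and Ube2c, which acts with the anaphase-promoting complex, at 4.46 and 10.9 CPM in CD44minus and 90.2 and 101 CPM in CD44plus (12.1-fold, edgeR adjusted p = 0.0141). Kif11, the motor that pushes spindle poles apart, was at 21.3 and 21.5 CPM in CD44minus and 171 and 229 CPM in CD44plus (9.33-fold). Levels in the CD44minus libraries were within a few CPM of each other for Kif11, although Epcam and Vil1 differed more than 5 times between them. The proliferation marker Mki67 had the highest level of the list, 149 and 251 CPM in CD44minus and 1856 and 2462 CPM in CD44plus, yet did not pass (log2 fold change 3.43, SE 1.19, edgeR adjusted p = 0.146). Calls numbered 30 and 28 without CD44minus of animal 1 and of animal 2, 13 and 0 without CD44plus of animal 1 and of animal 2, and 8 to 11 without a control library.

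Since these lists moved as groups, promoters of some called members are shown, from RefSeq (GRCm38.p6). They were picked because the gene was called and its promoter holds the motif. The window searched was the 250 bases before each start, on both strands, for 14690 of the genes tested. The letters of an E2F site, the element through which E2F factors act on replication genes, were taken as TTTCCCGC, TTTGGCGC or TTTCGCGC, and those of the CCAAT box bound by NF-Y as CCAAT. A match of 1 kind can overlap a match of its own kind on the other strand. The printed windows are 120 bases on the gene's strand, with matches in capitals. E2F matches are marked in Mcm6 (chr1:128359706-128359825, minus strand), Mcm5 (chr8:75109268-75109387, plus strand) and Pola1 (chrX:93632266-93632385, minus strand), and CCAAT boxes in Top2a (chr11:99024190-99024309, minus strand), Ube2c (chr2:164769809-164769928, plus strand) and Ccnb2 (chr9:70421555-70421674, minus strand), a cyclin gene chosen for its motif.
Mcm6: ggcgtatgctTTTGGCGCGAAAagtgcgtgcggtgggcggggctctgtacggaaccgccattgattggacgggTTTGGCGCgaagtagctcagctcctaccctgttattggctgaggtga
Mcm5: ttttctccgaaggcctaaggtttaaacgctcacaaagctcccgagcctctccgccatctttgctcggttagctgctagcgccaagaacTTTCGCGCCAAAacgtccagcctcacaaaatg
Pola1: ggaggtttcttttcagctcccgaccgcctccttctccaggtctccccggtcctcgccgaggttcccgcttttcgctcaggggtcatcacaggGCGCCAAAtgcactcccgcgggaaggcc
Top2a: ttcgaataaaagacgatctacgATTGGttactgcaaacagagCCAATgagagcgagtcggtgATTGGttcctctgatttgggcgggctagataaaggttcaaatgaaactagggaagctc
Ube2c: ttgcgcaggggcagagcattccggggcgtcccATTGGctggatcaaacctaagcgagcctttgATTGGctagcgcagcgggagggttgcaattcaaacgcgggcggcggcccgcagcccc
Ccnb2: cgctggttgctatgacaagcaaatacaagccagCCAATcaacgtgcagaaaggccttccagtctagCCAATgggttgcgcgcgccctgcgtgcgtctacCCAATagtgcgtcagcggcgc
An E2F match was in 9 of 28 promoters of the DNA replication list (32.1%), 1 of 25 of the mitosis list (4.0%) and 2.57% of all promoters searched. A CCAAT box was in 19 of 28 replication promoters (67.9%), 19 of 25 mitosis promoters (76%) and 39.1% of all. The hydrolase promoters described below held it in 57.9% and the ribosome biogenesis promoters in 26.3%, and it was in 44% of promoters of genes called higher and 43.5% of those called lower. Among the genes called higher in CD44plus, 9.13% of 241 promoters held an E2F match, and among those called lower 0 of 138 did. These are matches of letters and not measured binding.

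Histone genes that are read only while DNA is copied were higher in the crypt gate as well. Of 59 such genes, 27 rose and 0 fell (median log2 fold change 2.86, 3.45 and 2.34 within the animals). The linker histone gene Hist1h1b was at 7.92 and 46.9 CPM in CD44minus and 306 and 397 CPM in CD44plus (12.7-fold, edgeR adjusted p = 0.0413), and Hist1h1e, the most abundant of the list, at 77.7 and 529 CPM in CD44minus and 857 and 1157 CPM in CD44plus, which did not pass (edgeR adjusted p = 0.378). Hist1h2an was close to absent in the villus gate and at 0.495 and 0.817 against 34.1 and 36.4 CPM (49.4-fold, edgeR adjusted p = 0.0117). Near-identical copies share reads in this family, which the counting could split, so single members are uncertain. With CD44minus of animal 1 or of animal 2 left out, 37 and 48 were called, with CD44plus of animal 1 or of animal 2 left out 21 and 2, and with a control library left out 11 to 23.

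Stem cell genes of the crypt base formed a smaller group. Of 21 genes, 6 rose in CD44plus, 0 fell, and 19 had a positive ratio in both animals (median log2 fold change 2.15). Olfm4, a secreted protein of crypt base columnar cells, was at 29.7 and 61.8 CPM in CD44minus and 3767 and 3552 CPM in CD44plus, 79.7-fold higher (log2 fold change 6.32, SE 1.56, edgeR adjusted p = 0.0383). Cdca7, a proliferation-linked factor that acts on chromatin, was at 12.4 and 22.3 CPM in CD44minus and 206 and 200.3 CPM in CD44plus (11.6-fold, edgeR adjusted p = 0.0203) and the cell cycle kinase gene Cdk6 at 5.45 and 12 CPM in CD44minus and 76.2 and 101 CPM in CD44plus (9.92-fold). The other 3 called members, Smoc2, Msi1 and Soat1, are named to complete the count. Lgr5, the R-spondin receptor that marks these stem cells, was added after its values were seen. It was at 16.3 and 3.54 CPM in CD44minus and 41.1 and 47.8 CPM in CD44plus, a log2 fold change of 2.21 (SE 0.68) that did not pass (edgeR adjusted p = 0.0961). Sox9, a transcription factor of stem and Paneth cells, was at 68.8 and 81.7 CPM in CD44minus and 330.2 and 338 CPM in CD44plus and did not pass either (log2 fold change 2.15, SE 0.78). Leaving out CD44minus of animal 1 or of animal 2 gave 16 and 18 calls, with 1 lower in the latter case, leaving out CD44plus of animal 1 or of animal 2 gave 4 and 0, and leaving out a control library gave 2 to 4.

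Wnt targets overlap with this list. Of 19, 3 rose: Cd44, Myc and Tcf7. Cd44 is the gene of the sorting marker, so its rise was built into the gates and says nothing further on Wnt targets. Myc, the growth-promoting transcription factor, was at 10.4 and 12.8 CPM in CD44minus and 171 and 182 CPM in CD44plus (log2 fold change 3.92, SE 0.70, edgeR adjusted p = 0.0139), with both CD44minus libraries at nearly the same low level. Tcf7, a partner of beta-catenin that T cells express as well, was at 15.4 and 9.54 CPM in CD44minus and 54.8 and 115 CPM in CD44plus (6.91-fold, edgeR adjusted p = 0.0245). Axin2, the feedback inhibitor often read as a Wnt reporter, was at 65.9 and 221 CPM in CD44minus and 354 and 396 CPM in CD44plus and did not pass (log2 fold change 1.38, SE 0.86). Its level in CD44minus of animal 2 was nearer to the crypt gate than that of animal 1. The count was 10 without CD44minus of animal 1 and 13 without CD44minus of animal 2, with 1 lower in the latter case, 3 and 0 without CD44plus of animal 1 and of animal 2, and 2 to 3 without a control library.

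**Figure D2:**
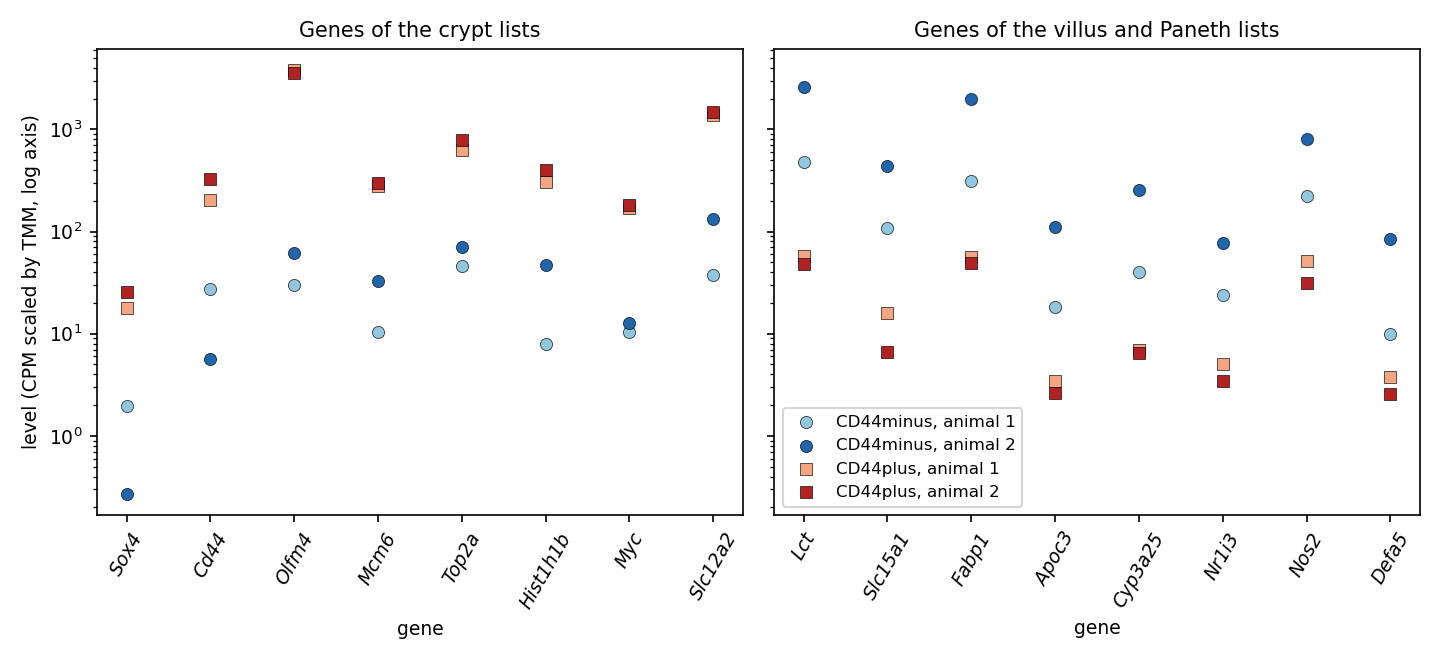
Levels of 16 genes (CPM scaled by TMM, log axis) in each Sox4cKO library, with circles for CD44minus and squares for CD44plus. Genes of the crypt lists, on the left, lie higher in both CD44plus libraries, and genes of the villus and Paneth lists, on the right, higher in both CD44minus libraries, where animal 2 lies above animal 1 for all 8.

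Genes that build ribosomes leaned to the crypt gate. All 23 of 23 ribosome biogenesis genes had a positive ratio in both animals (median log2 fold change 2.25), but 4 passed (Dkc1, Nhp2, Rrp9 and Polr1b) and 13 with the replicate block. Dkc1, the pseudouridine synthase of ribosomal RNA, was at 4.46 and 21.3 CPM in CD44minus and 86.5 and 114 CPM in CD44plus (7.58-fold, edgeR adjusted p = 0.0417). Polr1b, a core subunit of RNA polymerase I, was at 13.4 and 8.72 CPM in CD44minus and 73.8 and 80.6 CPM in CD44plus (7.05-fold, edgeR adjusted p = 0.0189). The nucleolar protein genes Ncl and Npm1 were more abundant, Ncl at 161 and 717 CPM in CD44minus and 2149.6 and 2628 CPM in CD44plus and Npm1 at 27.7 and 88.5 CPM in CD44minus and 342 and 407 CPM in CD44plus, and did not pass (log2 fold changes 2.44, SE 1.21, and 2.68, SE 0.87). Rrp9 was named for the count. Calls numbered 18 and 23 without CD44minus of animal 1 and of animal 2, 3 and 0 without CD44plus of animal 1 and of animal 2, and 1 to 3 without a control library. Ribosomal protein genes themselves showed 0 calls among 82 and 17 with the block, with a median of 1.56. Their within-animal medians were 2.79 and 0.98, so the shift was larger in animal 1. Calls were 8 higher without CD44minus of animal 1 (median 0.88), and 65 higher and 2 lower without CD44minus of animal 2 (median 3.06). Rpl4 was at 128 and 814 CPM in CD44minus and 1347 and 1642 CPM in CD44plus (log2 fold change 1.66, SE 1.11, edgeR adjusted p = 0.412).

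Notch pathway and secretory progenitor genes, which split daughters between the absorptive and secretory fates, had 2 calls of 18, Sox4 itself and Lfng, a modifier of Notch receptors (5.45 and 14.4 against 41.5 and 71.4 CPM, 5.54-fold, edgeR adjusted p = 0.0385). Notch1 was at 27.2 and 46.6 CPM in CD44minus and 224 and 275 CPM in CD44plus and passed only with the replicate block (edgeR adjusted p = 0.0618 without it and 0.0365 with it). With CD44minus of animal 1 or of animal 2 left out, 8 and 12 were called, with 1 lower in the latter case, with CD44plus of animal 1 or of animal 2 left out 2 and 0, and with a control library left out 1 to 2.

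Hormone genes of enteroendocrine cells gave 2 calls of 28, both higher in CD44plus. The incretin gene Gip was at 5.94 and 0 CPM in CD44minus and 183 and 255 CPM in CD44plus (log2 fold change 6.34, SE 1.41, edgeR adjusted p = 0.0234). Its 0 in CD44minus of animal 2 allows up to 3 counts, or 0.817 CPM. Sst, somatostatin, was at 5.94 and 0.545 CPM in CD44minus and 42.5 and 58.3 CPM in CD44plus (17.1-fold, edgeR adjusted p = 0.029). Chgb, a granule protein gene and the most abundant of the list, was at 66.4 and 62.9 CPM in CD44minus and 789 and 1049 CPM in CD44plus and did not pass (log2 fold change 3.83, SE 1.12, edgeR adjusted p = 0.0799). Chga, its relative, was at 35.2 and 59.9 CPM in CD44minus and 132 and 168 CPM in CD44plus (log2 fold change 1.66, SE 0.77). Ghrl, the precursor of ghrelin, was at 17.3 and 148 CPM in CD44minus and 27.8 and 51.4 CPM in CD44plus, with ratios of opposite sign in the 2 animals (0.66 and -1.52; log2 fold change -1.07, SE 0.77). Of the 28 genes, 20 had a positive and 8 a negative log2 fold change, and 13 were positive in both animals. The list's median was 0.48, 0.14 and 1.42 within the animals. Leaving out CD44minus of animal 1 or of animal 2 gave 11 and 7 calls, besides 1 and 1 lower, leaving out CD44plus of animal 1 or of animal 2 gave 2 and 0, and leaving out a control library gave 2 each time.

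Tuft cell genes rose in 3 of 18 cases. Avil, the actin-binding advillin, was at 23.8 and 12.3 CPM in CD44minus and 63.1 and 165 CPM in CD44plus (6.38-fold, edgeR adjusted p = 0.0394). Plcb2, of the taste signalling cascade, was at 17.8 and 6.54 CPM in CD44minus and 65.5 and 131 CPM in CD44plus (8.24-fold, edgeR adjusted p = 0.0229). Alox5ap, needed for leukotriene synthesis and also expressed in myeloid and mast cells, was at 1.98 and 2.18 CPM in CD44minus and 28.8 and 120.4 CPM in CD44plus (35.3-fold, edgeR adjusted p = 0.0117). All 3 were highest in CD44plus of animal 2, which also had the highest mast cell and T cell levels, whose part in the result was not tested. Over the list 12 log2 fold changes were positive and 6 negative, 3 of them negative in both animals, with a median of 0.94 (0.37 and 2.14 within the animals). With the replicate block 5 were higher and 1 lower. The count was 9 without CD44minus of animal 1 and 5 without CD44minus of animal 2, with 1 lower in the latter case, 4 and 0 without CD44plus of animal 1 and of animal 2, and 2 to 3 without a control library.

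Chloride secretion was represented by Slc12a2, the basolateral cotransporter that loads crypt cells with chloride. It was at 37.6 and 131 CPM in CD44minus and 1391 and 1477 CPM in CD44plus, 16.9-fold higher, but passed only with the replicate block (edgeR adjusted p = 0.0727 without it and 0.0474 with it). Kcne3, a potassium channel subunit that sustains that secretion, was at 25.8 and 16.6 CPM in CD44minus and 136 and 116 CPM in CD44plus (5.98-fold, edgeR adjusted p = 0.042). In the same list of 12 genes the apical exchangers Slc9a3, which takes up sodium, and Slc26a6, which exchanges chloride, fell in CD44plus: Slc9a3 was at 202 and 654 CPM in CD44minus and 57.8 and 18.9 CPM in CD44plus (log2 fold change -3.48, SE 0.91, edgeR adjusted p = 0.0483), and Slc26a6 at 136 and 516 against 35.3 and 25.3 CPM (-3.43, SE 0.85). All 3 of these calls were lost, leaving 0 higher and 0 lower, without CD44plus of either animal and without any 1 of the 4 control libraries. There were 3 higher and 5 lower without CD44minus of animal 1, and 6 higher and 2 lower without CD44minus of animal 2.

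Digestive enzymes of the brush border were higher in the villus gate. Of 22 hydrolase genes tested, 12 fell in CD44plus, 0 rose, and 21 had a negative ratio in both animals. The median log2 fold change was -3.91, with -2.05 in animal 1 and -4.76 in animal 2, so the difference was far larger in animal 2. Lct, the lactase, was at 479.9 and 2579 CPM in CD44minus and 57.8 and 48 CPM in CD44plus (log2 fold change -4.85, SE 1.21, edgeR adjusted p = 0.0409). Enpp7, the alkaline sphingomyelinase, was at 131 and 439 CPM in CD44minus and 12.4 and 4.83 CPM in CD44plus (33.1-fold lower in CD44plus, edgeR adjusted p = 0.0146), and Ggt1, which cleaves glutathione, at 153 and 703 CPM in CD44minus and 15.5 and 13.8 CPM in CD44plus (29.2-fold lower). Ace, the angiotensin-converting enzyme, was at 535 and 2727 CPM in CD44minus and 71.6 and 57.9 CPM in CD44plus (25.2-fold lower, edgeR adjusted p = 0.0463). Each of these 4 was higher in both CD44minus libraries than in either CD44plus library, as were 16.2% of all genes tested. They were named as called genes, so this is no further support. Their levels in CD44minus of animal 2 were 3 to 6 times those of animal 1. The abundant members, the aminopeptidase Anpep (2064 and 10392 CPM in CD44minus and 416 and 316 CPM in CD44plus) and the sucrase-isomaltase Sis (1328 and 8702 CPM in CD44minus and 396 and 326 CPM in CD44plus) did not pass (log2 fold changes -4.09, SE 1.52, and -3.80, SE 1.46). Calls numbered 21 (median -4.61) and 18 (median -2.32) without CD44minus of animal 1 and of animal 2, 6 and 0 without CD44plus of animal 1 and of animal 2, and 4 to 9 without a control library.

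Promoters of 2 called hydrolase genes and of Fabp1, a called gene of fat absorption described below, are shown as the villus counterpart. The letters searched were CAAAGTCCA for HNF4, a nuclear receptor of enterocytes, and TTTATTG, the variant TTTATGG and the variant TTTATAG for CDX factors, which set intestinal identity, and a CDX match on the minus strand can share letters with a CCAAT box. Alpi, the intestinal alkaline phosphatase (chr1:87101607-87101726, minus strand), and Treh, the trehalase (chr9:44673113-44673232, plus strand), show an HNF4 match in capitals, and Fabp1 (chr6:71199759-71199878, plus strand) a CDX match. Alpi and Treh were chosen for their motif.
Alpi: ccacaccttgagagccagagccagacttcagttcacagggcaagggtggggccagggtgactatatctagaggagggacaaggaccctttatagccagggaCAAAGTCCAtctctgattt
Treh: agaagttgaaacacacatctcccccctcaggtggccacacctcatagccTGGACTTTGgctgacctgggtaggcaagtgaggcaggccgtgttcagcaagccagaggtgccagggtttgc
Fabp1: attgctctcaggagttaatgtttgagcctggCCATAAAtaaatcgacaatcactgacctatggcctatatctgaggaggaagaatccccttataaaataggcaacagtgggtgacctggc
Matches to HNF4 were in 2 of 19 hydrolase promoters (10.53%), 5 of 138 promoters of genes called lower in CD44plus (3.62%), 0 of 241 called higher and 0.538% of all searched. The match was in 0 of 17 fat absorption promoters and 1 of 20 transporter promoters (5.0%). CDX matches were in 6 of 17 fat absorption promoters (35.3%), 4 of 19 hydrolase promoters (21.1%), 3 of 20 transporter promoters (15%), 19.6% of those called lower, 9.54% of those called higher and 8.85% of all. These too are matches of letters and not measured binding, and the CDX variants were not counted apart. The variant TTTATAG reads CTATAAA on the other strand, so some of its matches can be TATA boxes.

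Carriers that take up nutrients and ions were tested next. Of 24 transporter genes, 13 fell in CD44plus and 0 rose (median log2 fold change -3.06, -1.43 and -4.12 within the animals). The median was -3.73 without CD44minus of animal 1 and -1.60 without CD44minus of animal 2. Slc15a1, the peptide transporter PEPT1, was at 108 and 437 CPM in CD44minus and 16.1 and 6.63 CPM in CD44plus (log2 fold change -4.59, SE 0.92, edgeR adjusted p = 0.0168). Slc34a2, which takes up phosphate, was at 137 and 584 CPM in CD44minus and 20.5 and 17 CPM in CD44plus (19.2-fold lower, edgeR adjusted p = 0.0209). Slc10a2, the bile acid transporter of the ileum, was at 11.9 and 58.8 CPM in CD44minus and 1.74 and 0.758 CPM in CD44plus (28.6-fold lower, edgeR adjusted p = 0.0234). Slc5a1, the sodium-glucose cotransporter SGLT1, had the highest level, 698 and 3850.2 CPM in CD44minus and 248 and 204 CPM in CD44plus, and did not pass (log2 fold change -3.33, SE 1.21). With CD44minus of animal 1 or of animal 2 left out, 23 and 17 were called, with 1 higher in the latter case, with CD44plus of animal 1 or of animal 2 left out 6 and 0, and with a control library left out 8 to 11.

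Genes of fat absorption and lipoprotein assembly had 6 calls of 23, all lower in CD44plus (median log2 fold change -3.27, -1.47 and -4.06 within the animals). The median was -4.07 without CD44minus of animal 1 and -1.60 without CD44minus of animal 2. Fabp1, a fatty acid binding protein, was at 311 and 1973 CPM in CD44minus and 56.8 and 49.2 CPM in CD44plus (log2 fold change -4.43, SE 1.13, edgeR adjusted p = 0.0428). Apoc3, a lipoprotein component, was at 18.3 and 109.8 CPM in CD44minus and 3.47 and 2.65 CPM in CD44plus (21-fold lower, edgeR adjusted p = 0.0139). Creb3l3, a transcription factor of lipid metabolism, was at 146 and 829.9 CPM in CD44minus and 32.4 and 29.1 CPM in CD44plus (15.9-fold lower, edgeR adjusted p = 0.0365). Apoa4, the most abundant member and a chylomicron protein of villus tip cells, was at 2511 and 12704 CPM in CD44minus and 301 and 245 CPM in CD44plus. Apoa1 was at 2151 and 9562 CPM in CD44minus and 189 and 146 CPM in CD44plus. Both were higher in each CD44minus library than in either CD44plus library, by more in animal 2, and did not pass (log2 fold changes -4.80, SE 1.65, and -5.13, SE 1.55). Leaving out CD44minus of animal 1 or of animal 2 gave 22 and 14 calls, with 1 higher in the latter case, leaving out CD44plus of animal 1 or of animal 2 gave 1 and 0, and leaving out a control library gave 1 to 5.

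Cytochrome P450 genes, which oxidise drugs and fatty acids, fell in 7 of 15 cases and 9 with the replicate block (median log2 fold change -2.84). Cyp3a25 was at 40.1 and 257 CPM in CD44minus and 6.94 and 6.44 CPM in CD44plus (22.2-fold lower, edgeR adjusted p = 0.0153), Cyp2d26 at 56.5 and 243 CPM in CD44minus and 8.82 and 7.77 CPM in CD44plus (18-fold lower) and Cyp4f14, the most abundant, at 239 and 1054 CPM in CD44minus and 62.9 and 31.6 CPM in CD44plus (13.7-fold lower, edgeR adjusted p = 0.0487). Cyp2b10, a target of the nuclear receptor CAR, was at 21.3 and 72.2 CPM in CD44minus and 2.17 and 3.51 CPM in CD44plus (16.3-fold lower, edgeR adjusted p = 0.0134). Nr1i3, which encodes CAR, was at 23.8 and 77.4 CPM in CD44minus and 5.06 and 3.41 CPM in CD44plus (12-fold lower, edgeR adjusted p = 0.0142). These P450 genes share sequence with relatives, so the split of reads among them is uncertain. The count was 14 without CD44minus of animal 1 and 7 without CD44minus of animal 2, 3 and 0 without CD44plus of animal 1 and of animal 2, and 3 to 6 without a control library.

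Of 24 transcription factor genes of enterocytes, 3 fell in CD44plus, Nr1i3 and Creb3l3, given above, among them. The median of the list was -0.77, with 0.37 in animal 1 and -1.40 in animal 2. It was -1.23 without CD44minus of animal 1 and 0.39, of the opposite sign, without CD44minus of animal 2. Among 15 genes of microvillus structure, 2 fell, the scaffold gene Pdzk1 (104 and 455 CPM in CD44minus and 10.4 and 12.7 CPM in CD44plus; 24.2-fold, edgeR adjusted p = 0.0147) and the actin bundler Espn (57 and 290.2 CPM in CD44minus and 19.7 and 21.4 CPM in CD44plus; 8.46-fold, edgeR adjusted p = 0.0422). Purine breakdown and villus tip genes gave 3 calls of 13: Creb3l3, the ectonucleotidase Enpp3 (33.2 and 62.9 against 9.40 and 5.87 CPM, 6.33-fold lower) and Ada, adenosine deaminase (36.2 and 90.7 against 12.3 and 11.7 CPM, 5.31-fold lower, edgeR adjusted p = 0.0484). The medians of the microvillus and villus tip lists were -2.24 and -1.16. They were -2.98 and -1.84 without CD44minus of animal 1, and -0.60 and 0.04 without CD44minus of animal 2. Without CD44minus of animal 1 the counts of lower genes in these 3 lists were 12, 14 and 8, without CD44minus of animal 2 they were 4, 2 and 6, with 3, 0 and 3 higher, and without CD44plus of animal 2 all were 0. Without CD44plus of animal 1 they were 2, 1 and 1, and without control CD44plus replicate 1 they were 2, 1 and 0.

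A pair of inducible defence genes were lower in the crypt gate, out of 12 Reg and antimicrobial genes. Nos2, the inducible nitric oxide synthase, was at 221 and 796 CPM in CD44minus and 50.9 and 31.3 CPM in CD44plus (12.4-fold, edgeR adjusted p = 0.0413). Saa1, serum amyloid A, was at 8.91 and 52.6 CPM in CD44minus and 1.01 and 1.80 CPM in CD44plus (21.4-fold, edgeR adjusted p = 0.028), from a family with near-identical copies. The lectin gene Reg3b was far more abundant, 2087 and 12397 CPM in CD44minus and 3314 and 1667 CPM in CD44plus, and its levels in the gates overlapped (log2 fold change -1.54, SE 1.48). Calls numbered 4 and 2 without CD44minus of animal 1 and of animal 2, 0 and 0 without CD44plus of animal 1 and of animal 2, and 1 to 2 without a control library.

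Paneth cells lie in the crypt, and their genes were lower in the crypt gate or did not differ beyond their error. Of 14 tested, 3 fell in CD44plus and 0 rose, and 11 had a negative ratio in both animals (median log2 fold change -2.28, -0.52 and -3.15 within the animals). The defensin genes Defa5 and Defa22 were at 9.90 and 85 CPM in CD44minus and 3.76 and 2.56 CPM in CD44plus and at 20.8 and 97.5 CPM in CD44minus and 6.07 and 4.55 CPM in CD44plus (15.1-fold and 11.2-fold lower, edgeR adjusted p = 0.0232 and 0.0214). Pnliprp2, a lipase gene of this list, was at 33.2 and 155 CPM in CD44minus and 11.4 and 14.8 CPM in CD44plus (7.20-fold lower, edgeR adjusted p = 0.0449). Lyz1, the Paneth cell lysozyme, was at 2641 and 15105 CPM in CD44minus and 2144 and 1659.5 CPM in CD44plus (log2 fold change -2.22, SE 1.62, edgeR adjusted p = 0.446). In summed level the list stood at 6041 and 33043 CPM in CD44minus and 5198 and 4248 CPM in CD44plus. It was thus highest in CD44minus of animal 2, the library with the lowest Cd44, and similar in the other 3. Defensin genes have near-identical copies, so the split of reads among them is uncertain. With CD44minus of animal 1 or of animal 2 left out, 11 (median -3.05) and 4 (median -0.60) were called, with CD44plus of animal 1 or of animal 2 left out 1 and 0, and with a control library left out 2 to 3. In control the within-animal medians of the list were -1.18 and -2.79.

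**Figure D3:**
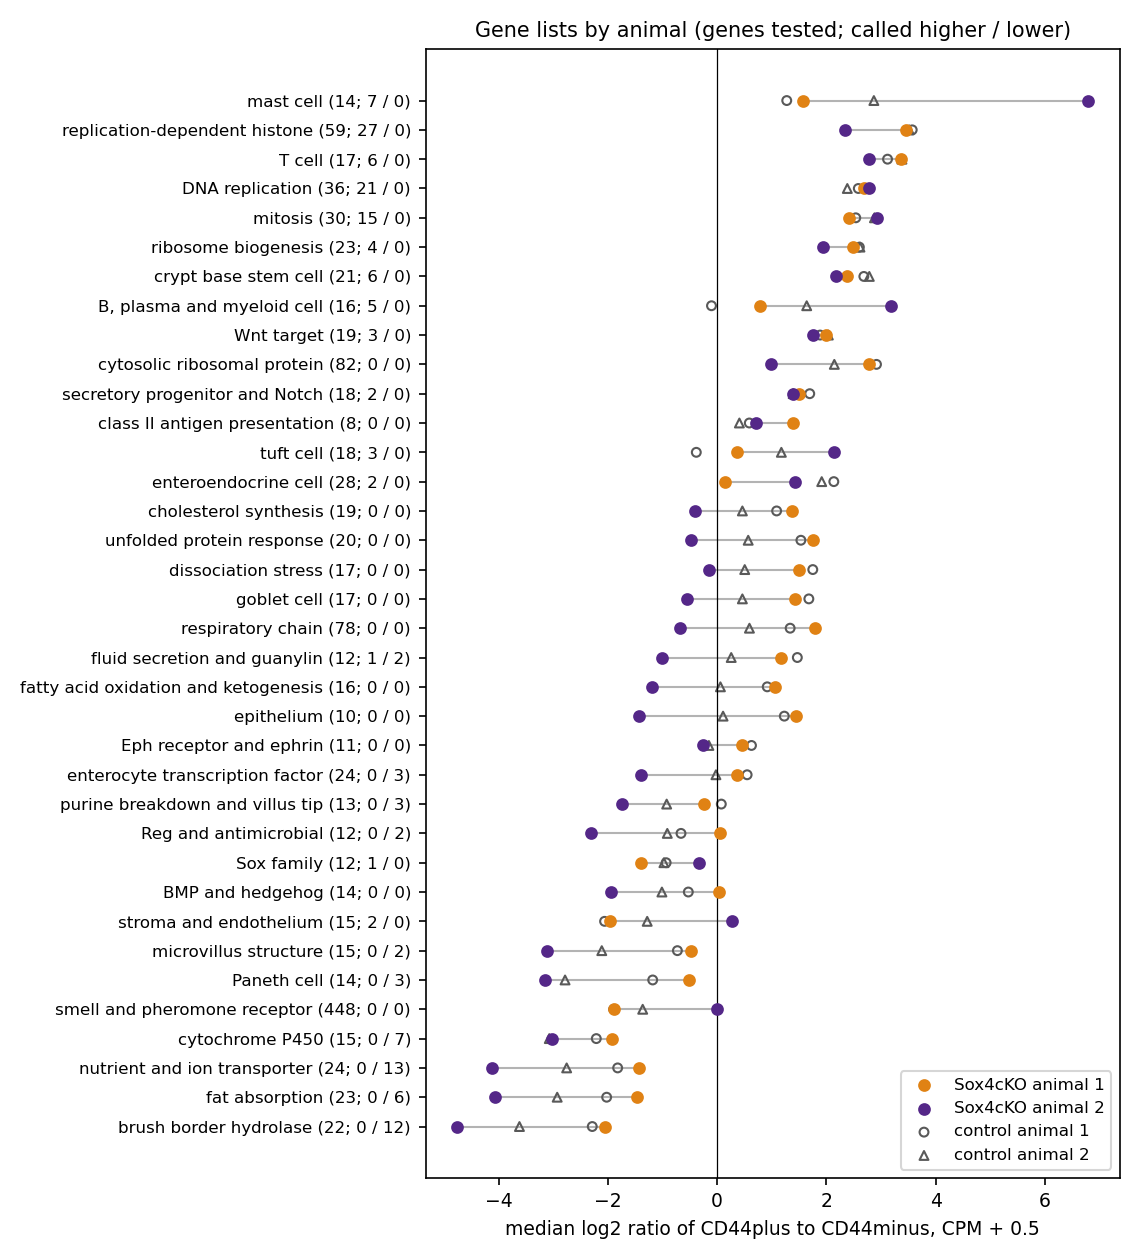
Median log2 ratio of CD44plus to CD44minus (CPM + 0.5) over each gene list in the Sox4cKO animals (filled, joined by a line) and the control animals (open), with the number of genes tested and called higher or lower beside each name. Replication, mitosis, histone, stem cell and T cell lists lie to the right of 0 in all 4 animals, brush border, transporter and fat absorption lists to the left, and the goblet cell, respiratory chain and epithelium lists on opposite sides of 0 in the 2 Sox4cKO animals.

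Several abundant gene groups had ratios of opposite sign in the 2 animals and gave no call. Of 17 goblet cell genes 0 rose and 0 fell by edgeR, with medians of 1.43 in animal 1 and -0.56 in animal 2. Muc2, the main gel-forming mucin, was at 1077 and 5295 CPM in CD44minus and 2077 and 2012 CPM in CD44plus (log2 fold change -0.64, SE 1.34). The 78 nuclear-encoded respiratory chain genes had medians of 1.80 and -0.68, the 20 unfolded protein response genes 1.76 and -0.47, the 19 cholesterol synthesis genes 1.37 and -0.41 and the 17 dissociation stress genes 1.50 and -0.15. Hspa5, the chaperone BiP, was at 348 and 1482 CPM in CD44minus and 1231 and 1163 CPM in CD44plus (log2 fold change 0.39, SE 1.06). For Muc2 and Hspa5 the 2 CD44plus libraries lay close together, while CD44minus of animal 1 lay below them and CD44minus of animal 2 above them. The 10 general epithelium genes, Epcam among them, had medians of 1.44 and -1.44. Summed receptor background was 2438 CPM in that low library and 357 CPM in the other, and its part in these values was not tested. Without CD44minus of animal 2, which leaves the low library alone, calls rose to 7 of the goblet genes, 61 of the respiratory chain genes and 14 of the unfolded protein response genes, all higher in CD44plus. Without CD44minus of animal 1 there were 0, 0 and 0 higher and 1, 3 and 1 lower.

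**Figure D4:**
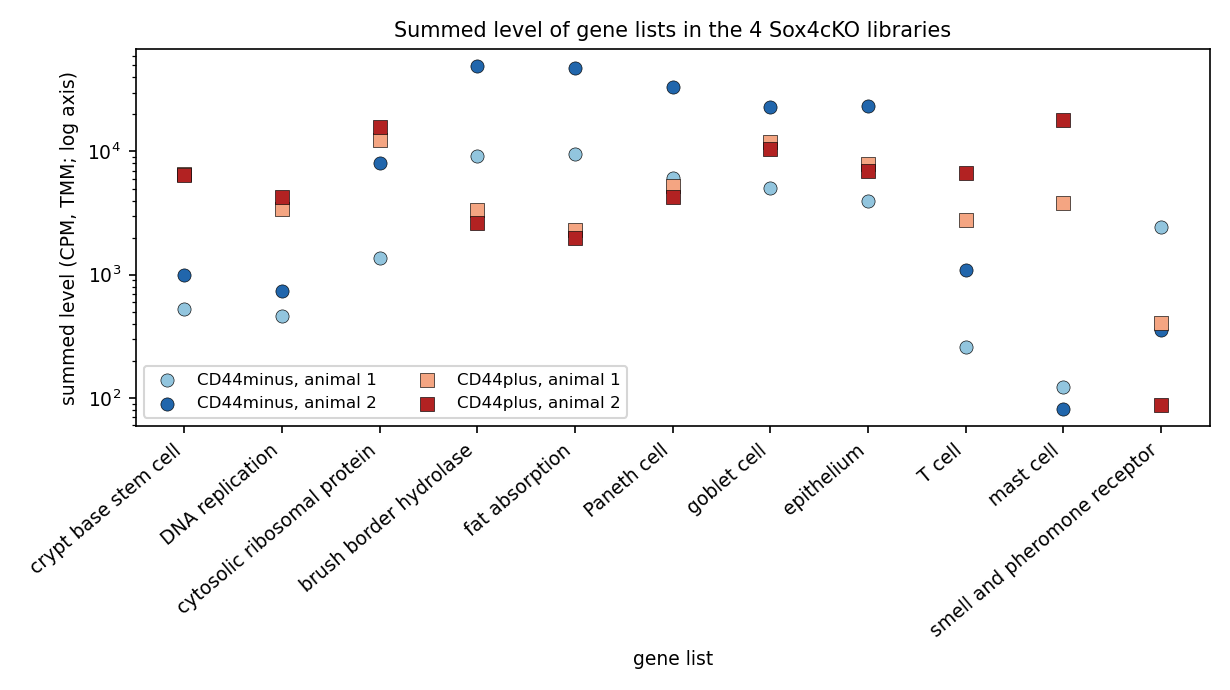
Summed level of 11 gene lists (CPM scaled by TMM, log axis) in the 4 Sox4cKO libraries. CD44minus of animal 2 lies above CD44minus of animal 1 in every list shown except the mast cell and receptor lists. The receptor genes are highest in CD44minus of animal 1, and T cell and mast cell genes are highest in CD44plus of animal 2.

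Genes of blood cells were among the largest differences, although both gates were sorted for an epithelial marker. Of 14 mast cell genes 7 rose in CD44plus and 0 fell. Mcpt1 and Mcpt2 encode proteases of the mucosal mast cells that sit in the epithelium. Mcpt1 was at 4.46 and 3.27 CPM in CD44minus and 2218 and 10912 CPM in CD44plus (log2 fold change 10.74, SE 1.93, edgeR adjusted p = 0.0139), the largest difference of any gene named here, and Mcpt2 at 10.4 and 3.81 CPM in CD44minus and 1025 and 5243 CPM in CD44plus (449.5-fold, edgeR adjusted p = 0.0139). Cpa3, the mast cell carboxypeptidase, was at 7.43 and 0.545 CPM in CD44minus and 94 and 408 CPM in CD44plus (68.2-fold) and Cma2 at 1.98 and 0.817 CPM in CD44minus and 47.7 and 212 CPM in CD44plus (98.9-fold, edgeR adjusted p = 0.0117). All 4 were over 4 times higher in CD44plus of animal 2 than of animal 1. The summed level of the list was 122 and 81.5 CPM in CD44minus and 3797 and 18164 CPM in CD44plus. In control Mcpt1 was at 2.69 and 2.75 CPM in CD44minus and 1094 and 1889 CPM in CD44plus. Mcpt genes are near-identical in part, so their split is uncertain. Leaving out CD44minus of animal 1 or of animal 2 gave 10 and 9 calls, leaving out CD44plus of animal 1 or of animal 2 gave 9 and 4, and leaving out a control library gave 6 to 8.

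T cell genes rose in 6 of 17 cases and in 13 with the replicate block, 0 fell, and 16 had a positive ratio in both animals (median log2 fold change 2.76). The integrin gene Itgae, by which intraepithelial lymphocytes hold on to epithelial cells, was at 29.2 and 73.3 CPM in CD44minus and 339 and 1044 CPM in CD44plus (13.4-fold, edgeR adjusted p = 0.0431). Ptprc, which encodes the leukocyte marker CD45, was at 21.8 and 66.2 CPM in CD44minus and 346 and 846 CPM in CD44plus (13.5-fold, edgeR adjusted p = 0.0441), and Cd69, an early activation marker, at 6.44 and 13.6 CPM in CD44minus and 102 and 345 CPM in CD44plus (21.9-fold, edgeR adjusted p = 0.0146). Gzma, a granzyme and the most abundant member, was at 41.1 and 317 CPM in CD44minus and 581 and 1326 CPM in CD44plus and did not pass (log2 fold change 2.41, SE 1.07). The list summed to 258 and 1085 CPM in CD44minus and 2762 and 6651 CPM in CD44plus, and 0 of its members tested were at 0 reads in any of the 4 libraries. The count was 13 without CD44minus of animal 1 and 15 without CD44minus of animal 2, 10 and 0 without CD44plus of animal 1 and of animal 2, and 2 to 3 without a control library.

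Of 16 B, plasma and myeloid cell genes, 5 rose. Igj, the joining chain of secreted antibodies, was at 0.990 and 0 CPM in CD44minus and 35.9 and 40.4 CPM in CD44plus (edgeR adjusted p = 0.0117; the CD44minus level rests on 2 reads) and Itgax, the integrin CD11c that intraepithelial lymphocytes carry too, at 15.4 and 5.45 CPM in CD44minus and 116 and 374 CPM in CD44plus (24-fold, edgeR adjusted p = 0.0147). Fcer1g, a signalling chain of Fc receptors, was at 1.98 and 10.4 CPM in CD44minus and 36.7 and 106 CPM in CD44plus (11-fold), and Lyz2 and Tyrobp were the other 2. Vim, the intermediate filament of mesenchymal and blood cells, was at 9.41 and 11.2 CPM in CD44minus and 115 and 294 CPM in CD44plus (19.8-fold, edgeR adjusted p = 0.0141) and Pecam1, of endothelium and leukocytes, at 19.3 and 9.54 CPM in CD44minus and 49.7 and 165 CPM in CD44plus (7.53-fold, edgeR adjusted p = 0.0365). They were the only calls of 15 stroma and endothelium genes, whose median was -2.03, with -1.96 and 0.28 within the animals. That median was 0.99 without CD44minus of animal 1 and 0.42 with the stricter filter. The other 3 genes selected by size of change are broadly expressed in blood cells or in stem cells: Ifitm1 (1.98 and 0 CPM in CD44minus and 40.1 and 188 CPM in CD44plus; the CD44minus levels rest on 4 reads and 0 reads, so no fold is given), Ifitm3 (0.495 and 3.0 CPM in CD44minus and 47.9 and 51.2 CPM in CD44plus; the CD44minus levels rest on 1 read and 11 reads), both membrane proteins that restrict viruses, and Arhgdib (2.97 and 5.45 CPM in CD44minus and 77.8 and 214 CPM in CD44plus; 33.7-fold), which is expressed in leukocytes. For the B, plasma and myeloid list, the count was 10 and 5 without CD44minus of animal 1 and of animal 2, 5 and 1 without CD44plus of animal 1 and of animal 2, and 5 each time without a control library. For the stroma list, the count was 3 and 2 without CD44minus of animal 1 and of animal 2, with 7 lower in the latter case, 2 and 0 without CD44plus of animal 1 and of animal 2, and 1 to 2 without a control library. The share of the gate's reads that came from blood cells was not tested.

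Other genes with the largest fall in CD44plus lay outside the lists. Gdpd2, a glycerophosphodiester phosphodiesterase, was at 24.3 and 91.3 CPM in CD44minus and 2.46 and 0.663 CPM in CD44plus (38.1-fold, edgeR adjusted p = 0.0117). Clca6 was at 61.9 and 162 CPM in CD44minus and 5.21 and 1.71 CPM in CD44plus (32.8-fold), the endocytic receptor gene Cubn, which takes up the vitamin B12 complex, at 257 and 1401 CPM in CD44minus and 29.8 and 21.5 CPM in CD44plus (32.3-fold, edgeR adjusted p = 0.0234), and the amino acid carrier gene Slc7a15 at 23.8 and 71.9 CPM in CD44minus and 1.59 and 1.42 CPM in CD44plus (31.6-fold). Slc13a2, which takes up citrate and succinate, was at 49.5 and 261 CPM in CD44minus and 6.51 and 4.36 CPM in CD44plus (28.7-fold, edgeR adjusted p = 0.0134). Plb1, a brush border phospholipase, was at 218 and 686 CPM in CD44minus and 23.3 and 11.9 CPM in CD44plus (25.7-fold), and G6pc, glucose 6-phosphatase, at 33.2 and 43.9 CPM in CD44minus and 2.46 and 0.853 CPM in CD44plus (23.7-fold, edgeR adjusted p = 0.0117). The lectin-like gene Clec2e was at 34.2 and 196 CPM in CD44minus and 5.35 and 3.70 CPM in CD44plus and H2-Bl, a class I histocompatibility gene, at 246 and 1290.0 CPM in CD44minus and 36.7 and 29.5 CPM in CD44plus (25.6-fold and 23.2-fold). All 9 were above 20 CPM in both CD44minus libraries, which the rule for naming required, and G6pc was the one whose levels there were closest to each other. None of the 9 was called without CD44plus of animal 2, since no gene was then called lower.

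Whether the difference between gates itself depends on Sox4 was asked by setting these log2 fold changes against those of the control littermates, which share no library with them. For this difference of differences edgeR called 0 of 20427 genes, with 50 at an unadjusted p under 0.05. With the replicate block it called 0 as well, with 214 at an unadjusted p under 0.05. Without CD44minus of animal 1 of Sox4cKO it called 254. Of the 529 genes called in Sox4cKO, 527 (99.6%) had the same sign in both control animals. The share over all genes tested is not given. The 529 were selected at absolute log2 fold changes of at least 2.11, with the control libraries in the estimate of spread. Their share is therefore not a separate test of likeness between the genotypes. Across genes, the mean within-animal ratios of the genotypes correlated at 0.841 for all genes and 0.969 for the 529, given as a description over genes that are not independent replicates. A p that misses the threshold does not show that the genotypes were alike.

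**Figure D5:**
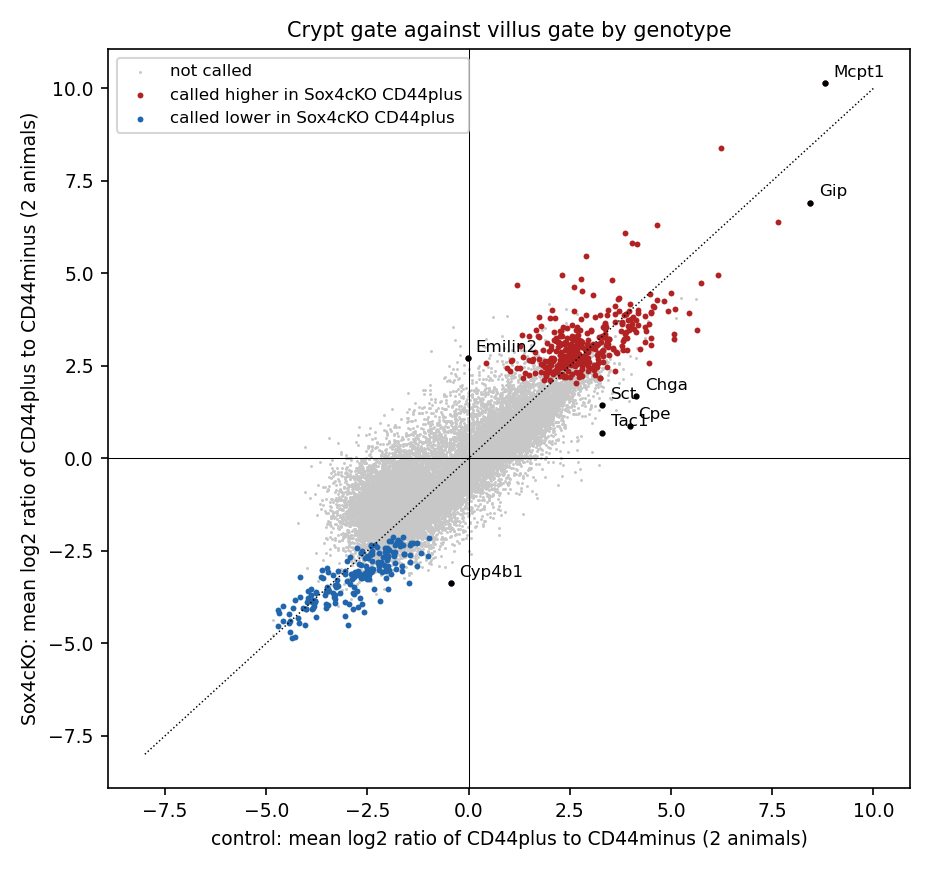
Mean log2 ratio of CD44plus to CD44minus (CPM + 0.5) over the 2 control animals on the x axis and the 2 Sox4cKO animals on the y axis, 1 point per gene, with genes called between the gates of Sox4cKO in colour. Most coloured genes lie near the dotted line of equal ratios, and the labelled hormone and granule genes Cpe, Tac1, Sct, Chga and Gip lie below it. The labels are a choice of genes and no test of a group.

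The replication, hydrolase and transporter lists show this side by side. DNA replication had medians of 2.70 and 2.78 in Sox4cKO and 2.59 and 2.38 in control. Brush border hydrolases had -2.05 and -4.76 against -2.29 and -3.62, and transporters -1.43 and -4.12 against -1.82 and -2.76. In the hydrolase and transporter lists the Sox4cKO animals lay on both sides of the control animals. Enteroendocrine genes had 0.14 and 1.42 in Sox4cKO and 2.14 and 1.92 in control, where both control animals were higher. The fitted median of that list in Sox4cKO, 0.48, depended on the libraries used. It was 1.58 without CD44minus of animal 1, 0.41 without CD44minus of animal 2 and 1.06 with background subtracted.

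The genes with the smallest p for that difference, none of which passed, included several of hormone cells. They were picked by that p in these same libraries, so their levels are no test of a difference in hormone cells. Cpe, which trims prohormones, was at 7.92 and 3.0 CPM in CD44minus and 8.68 and 10.4 CPM in CD44plus in Sox4cKO and 2.69 and 6.29 CPM in CD44minus and 67 and 81.1 CPM in CD44plus in control (difference of log2 fold changes -3.12, SE 0.90, edgeR adjusted p = 1). Tac1, the precursor of substance P, was at 2.48 and 11.7 CPM in CD44minus and 9.54 and 9.0 CPM in CD44plus in Sox4cKO and 4.04 and 3.54 CPM in CD44minus and 42 and 41.6 CPM in CD44plus in control (-3.13, SE 1.01, edgeR adjusted p = 1). Sct, secretin, was at 6.93 and 18.3 CPM in CD44minus and 27.6 and 36 CPM in CD44plus in Sox4cKO and 6.06 and 8.65 CPM in CD44minus and 67.7 and 84.7 CPM in CD44plus in control (-2.04, SE 0.83, edgeR adjusted p = 1). For these 3 genes both control CD44plus libraries stood above all other libraries, a pattern that the selection by p favours. Clca2 was at 13.9 and 19.9 CPM in CD44minus and 50.04 and 49.5 CPM in CD44plus in Sox4cKO and 2.69 and 7.47 CPM in CD44minus and 64.8 and 94.1 CPM in CD44plus in control (-2.35, SE 0.85, edgeR adjusted p = 1). Cyp4b1, a P450 gene, was called lower in CD44plus of Sox4cKO, at 20.8 and 25.6 CPM in CD44minus and 3.33 and 0.853 CPM in CD44plus (log2 fold change -3.49, SE 0.83), but was at 10.8 and 13.4 CPM in CD44minus and 10.7 and 7.12 CPM in CD44plus in control. Emilin2, an extracellular matrix protein, Ldlrad4, an inhibitor of TGF-beta signalling, and Icam1, an adhesion molecule for leukocytes, were higher in CD44plus of Sox4cKO (log2 fold changes 2.94, 4.05 and 2.78), most of all in animal 2, where they were at 109, 102 and 66.8 CPM. Their within-animal log2 ratios in control were 0.24 and -0.29 for Emilin2, 1.49 and 2.00 for Ldlrad4 and -0.43 and 1.28 for Icam1. Igj, given above, and Gp1ba, which encodes a platelet receptor chain and was at 36.2 and 6.27 CPM in CD44minus and 20.8 and 80.3 CPM in CD44plus, complete the 10 genes.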

How the data were processed

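RNA from sorted intestinal epithelial cells was made into libraries with a stranded total RNA kit (SMARTer Stranded Total RNA-seq Pico Input), per the labels' protocols. Reads were aligned to mm10, with STAR 2.2.5b and HTSeq 0.6.1p1 among the tools listed, after Trimmomatic 0.36 in that list, per the submitters' processing notes. The settings, including strand, are not given in the sources used here, so antisense and overlapping genes cannot be separated. The authors deposited raw read counts per gene symbol, and rows that name no gene were removed.

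Counts of 8 libraries in 4 groups were fitted with edgeR 4.0.16 (quasi-likelihood, R 4.3.3, TMM scaling, filterByExpr minimum count 10), with Benjamini-Hochberg adjustment over 20427 genes and a threshold of 0.05. The standard error is the absolute log2 fold change divided by the root of the F statistic. Within-animal ratios use CPM + 0.5. The gates of an animal are paired by the animal number in the table names. Deviations of same-numbered libraries from their group means correlated at 0.103 in control and 0.526 in Sox4cKO, and the fit with the replicate block was an alternative. The 2 animals per genotype set the spread behind every p. Predicted background is receptor reads per kilobase times transcript length (GENCODE M21). Intervals and floors (3 counts) cover counting error only.

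Named genes were Sox4, Cd44, Epcam and Vil1, the 15 with the largest change in each direction that passed, agreed in both animals and had at least 20 CPM in both libraries of the higher gate, up to 5 by level and 3 by change per list, and 10 by smallest p for the difference between genotypes, a choice of which is printed. Members and the 37 gene lists were chosen with earlier results of these data known. Alternatives were other scalings, filters, DESeq2 1.42.0, the block, subsets of libraries, omission of the ribosomal RNA gene Rn45s and, chosen after seeing the data, background subtraction. The fits were tested on simulated data. A result of an item withheld for evaluation is not reported here.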

Additional observations from a re-analysis of the deposited data

How the results depend on the processing

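With the replicate block, 1712 genes were called between the gates of Sox4cKO (807 higher, 905 lower in CD44plus) against 529 without it. The 4 Sox4cKO libraries alone gave 0 (0 higher, 0 lower), and with the block 248 (142 higher, 106 lower). CD44minus replicate 2 left out with the block gave 4605 (2295 higher, 2310 lower). Other scalings gave 641 (329 higher, 312 lower) for RLE and 2039 (1301 higher, 738 lower) for library totals, and the share of higher calls went from 64.1% to 51.3% with RLE. Without a filter the count was 884 (531 higher, 353 lower), with the stricter filter 2015 (828 higher, 1187 lower), with DESeq2 1765 (720 higher, 1045 lower), with Rn45s left out 1018 (785 higher, 233 lower) and with background subtracted 1847 (1391 higher, 456 lower). Leaving out single libraries gave 11 to 8440 calls, 11 to 5147 higher and 0 to 3293 lower, and 0 to 254 for the difference between genotypes. The cause of these shifts was not tested. RLE moved the median of all genes by -0.277, library totals by -0.447 and DESeq2 by -0.284 on the log2 scale.

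Gene lists kept the sign of their median in all 19 alternatives for replication, mitosis, histones, stem cells, hydrolases, transporters, fat absorption, P450, Paneth, T and mast cells. Wnt target, ribosomal protein, ribosome biogenesis, enteroendocrine, tuft, Notch, microvillus, Reg and antimicrobial, class II and B, plasma and myeloid lists kept it too. Goblet and respiratory chain medians changed sign with RLE, the stricter filter, DESeq2 and without CD44minus replicate 1. The sign was the same in 12 of 19 for fluid secretion, 14 for goblet, 15 for respiratory chain, 16 for Eph receptors, 17 each for enterocyte transcription factors, epithelium, fatty acid oxidation, BMP and hedgehog, stroma and dissociation stress, and 18 each for villus tip, unfolded protein response, cholesterol synthesis and the Sox family, and in 17 of 18 for smell and pheromone receptors. Among named genes, Epcam (-0.34) became 0.16 with the replicate block, 0.084 with the block in Sox4cKO libraries alone, 1.58 with CD44minus replicate 2 left out and the block, and ran from -1.11 to 1.46 over single libraries left out. With that replicate left out and the block, Gp1ba was at -0.79, Ghrl at 0.69, Muc2 at 0.96 and Reg3b at 0.68. Over single libraries left out, Muc2 ran from -1.37 to 0.93, Ghrl from -1.90 to 1.20, Reg3b from -2.32 to 0.26, Hspa5 from -0.31 to 1.79 and Tac1 from -0.34 to 1.90. The log2 fold change of no gene called in the report changed sign. The depth of CD44minus replicate 1 (1175251 reads) limits low genes most.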

Other observations

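The genes below are outside the lists and were chosen after their values were seen, so no count or test of them as groups is given. Among genes lower in the crypt gate of Sox4cKO, Ifit1, an interferon-induced gene, was at 39.1 and 101 CPM in CD44minus and 11.3 and 9.29 CPM in CD44plus (log2 fold change -2.78, SE 0.61, edgeR adjusted p = 0.0229), Oasl1 at 53 and 124 against 17.5 and 14.8 CPM (-2.46, SE 0.60), Ddx60 at 99 and 273 against 28.9 and 21.7 CPM (-2.88, SE 0.74) and Mx1 at 25.3 and 33.2 against 5.35 and 5.97 CPM (-2.37, SE 0.62). In the control animals the within-animal log2 ratios were -2.23 and -3.11 for Ifit1 and -1.49 and -1.89 for Mx1. Also lower was Rbp2, which carries retinol in enterocytes, at 372 and 2182 CPM in CD44minus and 64.5 and 48.9 CPM in CD44plus (-4.49, SE 1.15, edgeR adjusted p = 0.0433), as were Aldh1a1, which makes retinoic acid, at 42.6 and 144 against 12.7 and 3.79 CPM (-3.51, SE 0.73) and Rdh7 at 17.8 and 123 against 6.65 and 7.01 CPM (-3.37, SE 0.73). Pck1, the entry enzyme of gluconeogenesis, was at 46.1 and 327 CPM in CD44minus and 11.1 and 19.2 CPM in CD44plus (-3.62, SE 0.90, edgeR adjusted p = 0.0408).

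Higher in the crypt gate were Myb, a transcription factor of progenitors, at 31.7 and 51.8 CPM in CD44minus and 405 and 471 CPM in CD44plus (3.39, SE 0.85, edgeR adjusted p = 0.0411), the imprinted RNA gene H19 at 13.4 and 0.272 CPM in CD44minus and 37.5 and 186 CPM in CD44plus (4.14, SE 1.03) and Igfbp4, which binds insulin-like growth factors, at 6.44 and 5.99 CPM in CD44minus and 90.5 and 80.8 CPM in CD44plus (3.78, SE 0.61). In both CD44minus libraries each of these 3 was below its level in either CD44plus library, as were 21.1% of all genes tested.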
